A study of Saccharomyces cerevisiae with 4 samples.

Results

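The end-adjacent domains were the stretches 20 to 120 kb from either end of the 12 yeast chromosomes of 500 kb or longer (II, IV, V, VII, VIII and X to XVI). They were cut into bins of 5 kb counted from the chromosome end, and bins within 25 kb of the centromere were left out, which removed 8 bins on the left side of chromosome VIII. This gave 472 bins in 24 domains, of 2407 bins of 5 kb on all 16 chromosomes, chosen by position alone. The reference was the interior of the same chromosomes, 1457 bins more than 120 kb from both ends, also without the bins near the centromere.

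The series mapped meiotic DNA breaks in diploid Saccharomyces cerevisiae of the SK1 background by sequencing Spo11 oligos. Culture 1 gave 3 technical datasets and culture 2, grown separately, gave 1, and the files hold all 4 together. Cultures were collected 4 h after transfer to sporulation medium at 30 °C, following a 14 h presporulation culture, so a single time is covered. All datasets came from the same strain, homozygous for a tagged SPO11 (SPO11-HA3-His6::kanMX) and a deleted nuclease gene (nuc1∆::LEU2). It also carried arg4-Nsp, his4X::LEU2, leu2::hisG, ura3, lys2 and ho::LYS2. There was no untreated or mutant group.

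In meiosis Spo11, a topoisomerase-like protein, cuts both DNA strands and stays bound to the ends. Nucleolytic release leaves Spo11 attached to a short oligo, whose 5′ end marks the cut. Breaks cluster in hotspots, which in budding yeast lie mostly in promoters, where nucleosomes leave the DNA open. Cutting takes place on chromosome axes that carry Hop1 and Red1, and the sequence at the very ends of yeast chromosomes receives few breaks. The stretches next to the ends are known in yeast as places where Hop1 is kept late in prophase and where breaks can go on forming when other regions have stopped.

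The read list held 2024944 uniquely mapped oligos, and 412154 of them (20.4%) had their 5′ end in the domains. Density is given as RPM per kb, oligos per 1000000 mapped oligos per kb of bins. Read names showed 4 sequencing runs of 395612 to 587674 reads, which no label ties to a dataset or culture. Values per run are therefore ranges and not replicates, and no spread between cultures could be estimated. The tests below compare values of 12 chromosomes (11 where gene positions were needed). Chromosomes share the same libraries, so the p-values measure the spread between chromosomes. They are exact two-sided sign-flip permutation tests, Benjamini-Hochberg adjusted over 11 tests, and the threshold was 0.05. For a value under an alternative setting, only its own p-value was replaced before adjustment, and those of the other results stayed as reported.

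At 4 h the domains and the interiors had similar oligo densities, and the difference did not pass the test. Domain density was 86.2 ± 12.9 RPM per kb (SD, n = 12 chromosomes) and interior density 90.4 ± 9.05. The log2 ratio of domain to interior was −0.08 ± 0.27 (SD, n = 12), with an interval from −0.25 to 0.09 by inversion of the sign-flip test (exact permutation p = 0.331, adjusted p = 0.485). That interval corresponds to densities 0.839 to 1.06 times those of the interior. The ratio was above 0 on 5 chromosomes and below 0 on 7. By contrast, the terminal 20 kb on these chromosomes had 1.09 to 25.99 RPM per kb.

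The chromosomes themselves differed widely. On chromosome IV, the longest, the domains had 98.3 RPM per kb and the interior 77.4, a log2 ratio of 0.34 (0.22 to 0.41 in the runs). Chromosome XII had 91.1 against 75.6, a log2 ratio of 0.27 (0.20 to 0.31 in the runs). On these 2 chromosomes the domains were the richer part in 4 of 4 runs. Chromosome XV stood at the other end, with 55.4 in the domains and 86.9 in the interior, a log2 ratio of −0.65 (−0.96 to −0.51 in the runs). IV, XII and XV were picked by the pooled counts that the runs make up, so their run values are no separate evidence. Chromosome X (81.2 in the domains) and chromosome VIII (80.4 against 98.7) had log2 ratios of −0.31 and −0.30. The remaining 7 chromosomes had smaller gaps. Domain density exceeded that of the interior on II (93.2 against 87.6), V (97.3 against 96.8) and XIV (94.5 against 93.7). It was the lower value on VII (75.3 against 83.8), XI (102 against 104), XIII (80.2 against 85.7) and XVI (84.6 against 94.2). Neither XV nor IV decided the result, since leaving out any single chromosome moved the mean log2 ratio only between −0.12 and −0.03. Chromosome XII carries the ribosomal DNA, whose part in the ratio of XII was not tested. Without XII the mean log2 ratio was −0.11, above 0 on 4 and below 0 on 7 chromosomes. With bins without any oligo left out, all of them in the interior, it was −0.09, above 0 on 4 and below 0 on 8.

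**Figure D1:**
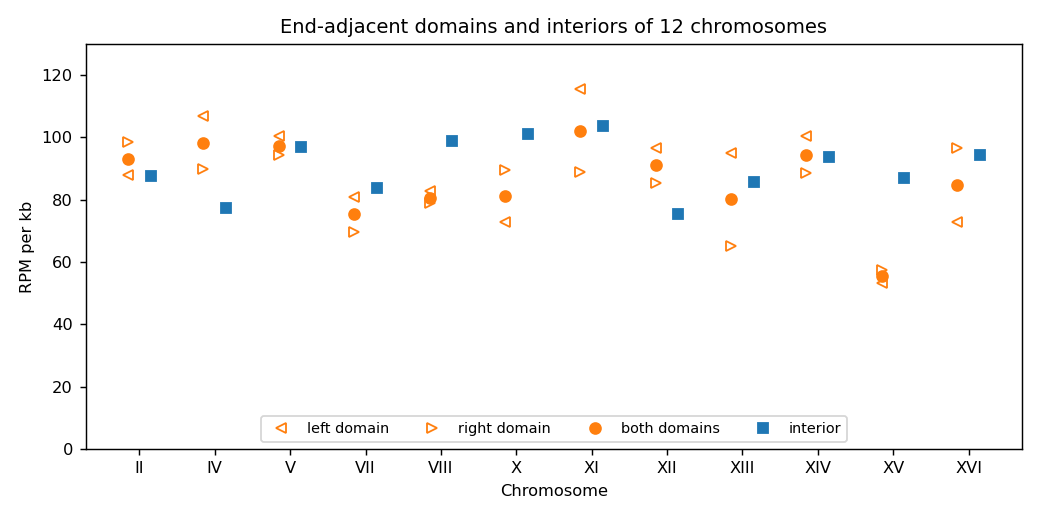
Spo11 oligo density (RPM per kb) on each of the 12 chromosomes: filled circles are both domains together, open triangles the left and right domain, squares the interior. The domain circle lies above the interior square on chromosomes II, IV, V, XII and XIV, and chromosome XV has the lowest domains (55.4 against 86.9).

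Runs differed in this measure. The mean log2 ratio was −0.04 in run E8YXO9P, −0.04 in FE8RWPF and −0.03 in FFA0GWK, and −0.23 in FIDXMPL. FIDXMPL was below the mean of the other runs on 12 of 12 chromosomes, by 0.19 ± 0.10 (SD). Over all bins together, FIDXMPL had 80.1 RPM per kb in the domains and 89.7 in the interior, while the other runs had 87.9 to 88.4 and 86.6 to 86.8. FIDXMPL gave 21.8% of domain oligos and 24.1% of interior oligos. Whether this run holds a particular culture or preparation cannot be told from the labels.

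Against the neighbouring stretch, 120 to 220 kb from the end, no difference passed either. Bins near the centromere were left out there too, so it held 29 to 40 bins per chromosome, beside 40 in the domains (32 on VIII). That stretch had 96.0 ± 11.5 RPM per kb, and the log2 ratio was −0.16 ± 0.35 (SD, n = 12; interval −0.39 to 0.05; exact permutation p = 0.128, adjusted p = 0.414). It was below 0 on 8 of 12 chromosomes. In run FIDXMPL alone it was −0.28 and below 0 on 10 of 12 (exact permutation p = 0.0103, adjusted p = 0.0376). This was the only alternative for this ratio under the threshold. The adjustment kept the other results at their pooled p-values, and the FIDXMPL p-values were not adjusted together. The ratio was −0.02 with each position and strand counted once (6 chromosomes above 0 and 6 below) and −0.09 without chromosome XV. With domains ending at 100 kb it was −0.32, but the reference then was the next 100 kb inwards and not 120 to 220 kb.

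Density was low at the ends and higher further in. Over 24 ends it was 4.75 ± 10.0 RPM per kb (SD) in the first 10 kb and 15.1 ± 16.1 from 10 to 20 kb, just outside the domain. Just inside, from 20 to 30 kb, it was 63.9 ± 53.6, and from 30 to 40 kb 60.0 ± 49.4. It then was 85.5 ± 50.4 from 40 to 50 kb, 57.5 ± 33.9 from 50 to 60 kb and 96.6 ± 74.1 from 60 to 70 kb. From 70 to 110 kb the 10-kb means lay between 95.05 and 118, and the last 10 kb of the domain had 85.9 ± 67.2. The first 10 kb beyond the domain had 119 ± 102 (21 ends), and means from 120 to 220 kb ran from 63.8 to 141. The SD over ends was large beside the steps between neighbouring means, and no single step was tested.

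**Figure D2:**
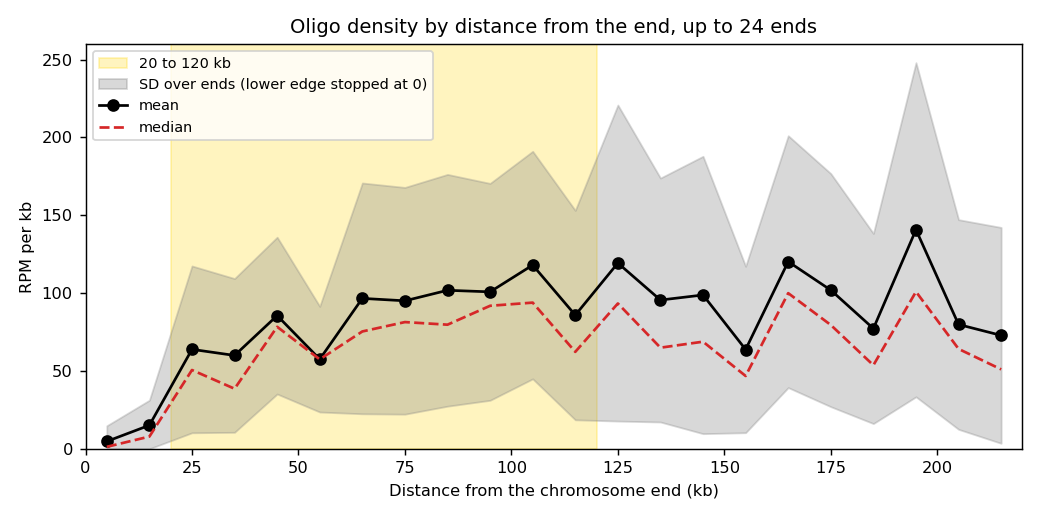
Oligo density (RPM per kb) in steps of 10 kb against distance from the chromosome end (kb), over 20 to 24 ends per step; points are means, the dashed line medians, the grey band the SD over ends, and the shaded box the 20 to 120 kb domain. Means rise from 4.75 in the first 10 kb to 63.9 at 20 to 30 kb and 118 at 100 to 110 kb.

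The outer part of the domains, 20 to 70 kb from the end, had fewer oligos than the inner part, 70 to 120 kb. The outer part had 72.7 ± 19.0 RPM per kb and the inner part 100 ± 19.1 (SD, n = 12 chromosomes). The log2 ratio was −0.49 ± 0.52 (interval −0.83 to −0.15; exact permutation p = 0.00830, adjusted p = 0.0457), a density 0.711 times that of the inner part. It was below 0 on 10 of 12 chromosomes. Chromosome VII showed it most (40.4 outer, 110 inner), followed by II (60.7 and 126) and XV (37.2 and 73.7). The order was turned on XVI (97.3 outer, 71.9 inner) and on XII (93.9 and 88.3). The call sat close to the threshold. Without 1 chromosome the log2 ratio ran from −0.58 to −0.40. The adjusted p (exact permutation), with the other results kept as reported, ran from 0.0215 to 0.0913. In that setting the call held only when XII or XVI was the one left out. Adjustment with a chromosome left out of all results together was not run. Without run FIDXMPL the log2 ratio was −0.44 (exact permutation, adjusted p = 0.0886), and in FIDXMPL alone it was −0.69 (adjusted p = 0.0215, exact permutation).

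Hotspot number and strength in these parts were not tested and are given as a description. Hotspots here are stretches where smoothed 5′ ends reach 2.3 times the genome mean. The outer part had 365 hotspots in 240 bins, 30.4 ± 5.40 per 100 kb (SD, n = 12), and the inner part 394 in 232 bins, 34.3 ± 4.83. Hotspots per 100 kb were fewer in the outer part on 7 and more on 3 of 12 chromosomes. The median hotspot held 208 ± 62.5 oligos in the outer and 278 ± 78.0 in the inner part, lower in the outer part on 10 of 12 chromosomes. Protein-coding genes covered 72.9 ± 4.81% of the outer and 75.03 ± 3.47% of the inner part (SD, n = 11). That share was lower in the outer part on 8 and higher on 3 of 11 chromosomes. Of the outer bins 74 (30.8%) were cold, at 0.25 times the mean of their chromosome or less, and of the inner bins 42 (18.1%). Hot bins, at 2 times that mean or more, were 22 (9.17%) of the outer and 39 (16.8%) of the inner bins. Among all 1929 bins of these chromosomes 25% were cold and 12.5% hot, between the shares of the outer and inner part. Reads were mapped to S288C, not SK1, and only uniquely mapped ones are listed, so repeats and stretches missing from SK1 look empty. Their part in the outer values was not tested.

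**Figure D3:**
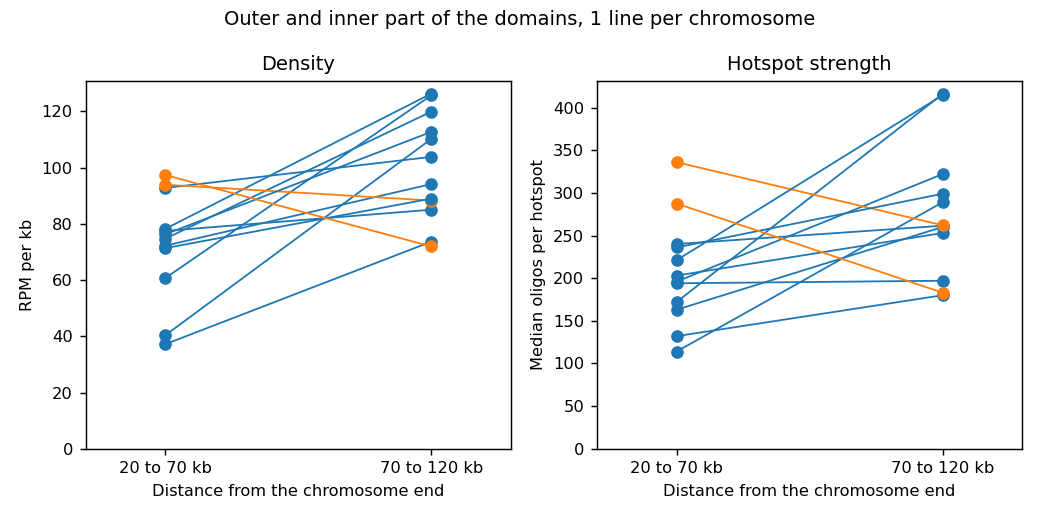
Density (RPM per kb, left) and median oligos per hotspot (right) in the outer part (20 to 70 kb from the end) and the inner part (70 to 120 kb) of the domains, with 1 line per chromosome, blue where the outer value is lower. Lines rise inwards on 10 of 12 chromosomes in both panels, and the falling lines are XII and XVI.

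Of the 472 domain bins, 61 (12.9%) were hot and 116 (24.6%) cold, beside 12.5% hot and 25% cold among all 1929 bins of these chromosomes. These shares are near the background. Domain bins ranged from 0.0988 to 571 RPM per kb with a median of 55.6, and interior bins had a median of 52.2. None of the 472 domain bins and 12 of the 1457 interior bins were without an oligo, too few to read a difference from. In the domains 63 bins (13.3%) held no hotspot, against 226 interior bins (15.5%). The coefficient of variation of bins within a chromosome was 1.07 ± 0.15 in the domains and 1.17 ± 0.18 in the interior (SD, n = 12; difference −0.10, exact permutation p = 0.151, adjusted p = 0.414).

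**Figure D4:**
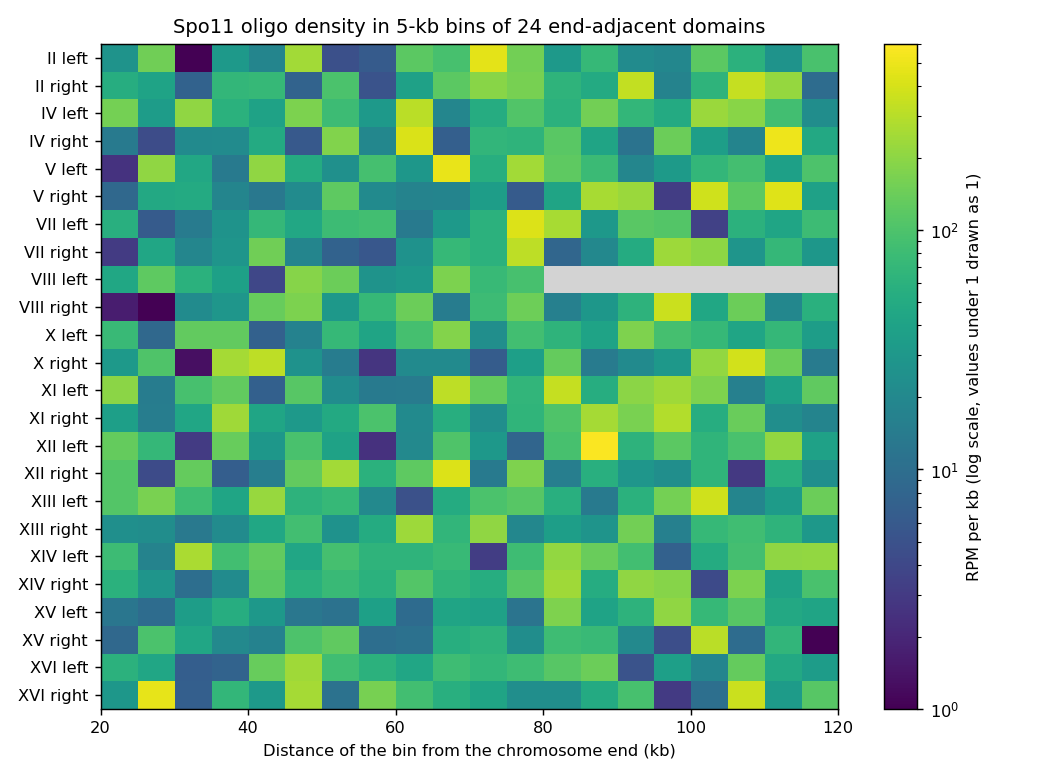
Oligo density of the 472 domain bins: each row is 1 of 24 domains, each column a 5-kb bin by its distance from the chromosome end (kb), and colour gives RPM per kb on a log scale; grey marks the 8 bins left out near the centromere of VIII. Bright bins (up to 571 RPM per kb) are scattered over distances, and dark bins are commoner to the left, nearer the end.

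The hottest bin lay 85 to 90 kb from the left end of XII and held TPO1, a polyamine transporter gene, ISA1, of iron-sulfur cluster assembly, and HSP104, the disaggregase gene. It had 5782 oligos (95% exact Poisson interval 5634 to 5933), 571 RPM per kb and 7.25 times the mean of its chromosome. Next came a bin 110 to 115 kb from the right end of IV with the vacuolar phosphatase gene PHO8 and the mannosyltransferase gene KRE2 (5118 oligos). Another lay 65 to 70 kb from the left end of V and held the threonine aldolase gene GLY1 and the INO80 subunit gene IES6 (4897). Next was the bin 25 to 30 kb from the right end of XVI with the respiratory chain gene QCR2 and the aquaporin gene AQY1 (4807). The last of the 5 was 70 to 75 kb from the left end of II with ALG3, of protein glycosylation (4620). Intervals here cover counting error only. Reads carry no molecular identifiers, so PCR copies could not be told apart and the intervals can be too narrow.

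The 5 emptiest bins lay over retrotransposon frames or within 35 kb of the end. The bin 115 to 120 kb from the right end of XV, over the retrotransposon reading frames YOR343W-A and YOR343W-B, had 1 oligo (0.0253 to 5.57). So had the bin 30 to 35 kb from the left end of II, over the retrotransposon frames YBL100W-A and YBL100W-B. On the right side of VIII the bin 25 to 30 kb from the end, with no listed protein-coding gene, had 2 oligos, and the bin 20 to 25 kb from the end had 17. On the right side of X the bin over DAN4, a cell wall mannoprotein gene, had 13. Unique mapping leaves out reads from near-identical repeats, so low counts over retrotransposons do not measure cutting there.

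Among the 24 domains, density ranged 2.16-fold, from 53.4 to 116 RPM per kb with a mean of 86.2 ± 15.2 (SD, n = 24). The left domain of XI was the richest (116, runs 109 to 119), followed by the left domains of IV (107, runs 98.1 to 111), XIV (100) and V (100). The left and right domains of XV were the poorest (53.4, runs 44.3 to 58.6, and 57.5, runs 49.8 to 64.1), and the right domain of XIII followed (65.2, runs 64.0 to 67.0). These domains were picked as the richest and poorest by the pooled counts that the runs make up, so their run values are no separate evidence. Of the 24 domains, 11 exceeded the interior of their chromosome, none by 1.5 times or more, and 2, both on XV, lay below it by 1.5 times or more.

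The difference in density between left and right domains did not pass (88.8 ± 17.3 and 83.6 ± 13.1 RPM per kb, SD, n = 12; log2 ratio 0.08, interval −0.10 to 0.26; exact permutation p = 0.352, adjusted p = 0.485). With the median bin in place of the mean, the left side was higher on 11 of 12 chromosomes (log2 ratio 0.59, exact permutation p = 0.00342, adjusted p = 0.0269). The largest gap between sides in density was on XIII (95.1 left, 65.2 right), and on XVI the right side was the higher (72.7 left, 96.6 right).

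Hotspot frequency in the domains was close to that in the interiors. The domains held 759 hotspots, and per chromosome 32.2 ± 3.80 per 100 kb against 32.1 ± 2.66 in the interior (SD, n = 12; difference 0.05, interval −2.67 to 2.80; exact permutation p = 0.964, adjusted p = 0.967). Median oligos per hotspot were 239 ± 44.7 in the domains and 254 ± 36.2 in the interior (log2 ratio −0.10, interval −0.33 to 0.12; exact permutation p = 0.348, adjusted p = 0.485). Oligos outside hotspots made up 11.6 ± 2.52% and 10.6 ± 0.707% (difference 1.06 points, exact permutation p = 0.188, adjusted p = 0.414). Over all hotspots together, the median width was 215 bp in the domains and 211 bp in the interior. Of the 100 strongest hotspots of the genome, 19 lay in the domains (2.503% of domain hotspots) and 64 in the interiors (2.795%). A domain held 18 to 45 hotspots, and its strongest one took 7.15 to 27.6% of its oligos, with a median of 17.0%.

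The strongest hotspot of the domains, ranked 16th in the genome, lay on XII (86508 to 87249, in the coordinates of the map, whose S288C build is not given) between TPO1 and ISA1. It held 5402 oligos (95% exact Poisson interval 5259 to 5548), 2668 RPM, and 1508 to 3235 RPM in the runs. Second was the gap between QCR2 and AQY1 on XVI (920659 to 921824), only 26.2 kb from the right end with 4455 oligos, followed by the divergent gap of GLY1 and IES6 on V (68913 to 69748) with 4435. DIF1, which regulates ribonucleotide reductase, and the arginine breakdown gene CAR2 flanked 4179 oligos on XII (1011280 to 1013082). The glutamine permease gene GNP1 and SMT3, the SUMO gene, flanked 4111 on IV (1468490 to 1469318). MTC3 and VRG4, the GDP-mannose transporter gene of the Golgi, flanked 4047 on VII (75681 to 76855).

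The next ranks follow as a description. The fatty acid synthase gene FAS1 lay beside LOT5 and 3629 oligos (XI, 99612 to 100281), and the iron permease gene FTR1 beside 3620 (V, 461451 to 462548). KRE2 and the splicing factor gene CWC21 flanked 3524 (IV), and the polyamine transporter gene TPO3 and TDA6 flanked 3507 (XVI). BAT2, the cytosolic branched-chain aminotransferase gene, and HMS2 flanked 3471 (X), and ALG3 and YBL081W flanked 3457 (II). RSM7, of the mitochondrial ribosome, and YJR115W flanked 3348 (X), and PET122, an activator of mitochondrial translation, and YER152C flanked 3153 (V). OYE2, an NADPH oxidoreductase gene, and the transcription factor gene STB5 flanked 3140 (VIII). RAD2, of nucleotide excision repair, and the nicotinic acid permease gene TNA1 flanked 3139 (VII).

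ARO4, which starts aromatic amino acid synthesis, and SPO23 flanked 2969 oligos (II), and the thiamine regulator gene THI2 and VVS1 flanked 2928 (II). BUR6, a transcription regulator gene, and YER158C flanked 2857 (V), and YML083C and YML082W flanked 2509 (XIII). Of these 20 hotspots, 10 had divergent and 10 tandem genes at the nearest gap, and 18 had their summit inside that gap. The summits by CWC21 and KRE2 and by YER152C and PET122 lay outside it. In the inner part of the domain lay 15 of the 20, beside 394 of all 759 domain hotspots. The ranking uses the same oligo counts as the outer against inner ratio, so it is no separate evidence.

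The strongest hotspot of each of the 24 domains held 1283 to 5402 oligos, with a median of 3054. Of these 24 hotspots, 12 lay in the inner and 12 in the outer part of the domain. Those outside the 20 above were flanked by FMP45 and the telomere-binding gene CDC13 (IV left, 1141 RPM) and by KRE1 and VNX1 (XIV left, 1155). KEL3 and the fumarase gene FUM1 flanked that of XVI left (1090), and LCB1, which starts sphingolipid synthesis, and the vacuolar carboxypeptidase gene PRC1 that of XIII right (1022). OCA5 and WSC4 flanked that of VIII left (908), ELO1 and the replication licensing gene CDC6 that of X left (872), and the pyruvate kinase gene PYK2 and the proline permease gene PUT4 that of XV right (854). MDH2, the cytosolic malate dehydrogenase gene, and TRM13 flanked that of XV left (799), and the zinc transport gene ZRG17 and MRX15 that of XIV right (634, the weakest of the 24). The right domain of XI (1175 RPM) was not named because the gene table is out of register there. Of the 23 named, 14 had divergent and 9 tandem flanking genes, and 21 had their summit inside the gap. The summits of IV left and XV right lay outside it. That of IV left lies in a window where the gene table was 135 bp out of register, so its place beside the gap is uncertain.

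The longest stretch between neighbouring hotspots within a domain spanned 15.97 kb on the right side of VII (1027140 to 1043111). It held 224 oligos, 6.93 RPM per kb, over YTA7, SLH1, EFG1, YGR273C and TAF1, the gene of the largest TFIID subunit. The next spanned 13.9 kb on the right side of XVI (843098 to 856971) with 54 oligos over CUR1 and retrotransposon frames named YPR158. A stretch of 12.85 kb on the left side of XV (70232 to 83077) had 465 oligos over 8 genes from HRT1 to MDH2. One of 11.7 kb on the right side of V (492108 to 503825) had 165 over SPT2, RAD4 and GCG1 beside retrotransposon frames. The last, 11.6 kb on the left side of XIII (56454 to 68023), had 167 over URA5, SEC65, MDM1 and NUP188.

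In gene organisation, which the choice of bins did not use, no difference passed. On the 11 chromosomes in register, protein-coding genes covered 73.9 ± 3.29% of the domains and 74.6 ± 2.46% of the interiors (SD, n = 11; difference −0.64 points, exact permutation p = 0.612, adjusted p = 0.748). The domains had 49.2 protein-coding and 1.71 tRNA genes per 100 kb, and the interiors 50.9 and 2.31. Gaps that hold a gene's 5′ end (divergent and tandem) had a hotspot in 74.8 ± 8.57% and 74.7 ± 5.12% of cases (difference 0.13 points, interval −7.81 to 7.99; exact permutation p = 0.967, adjusted p = 0.967). By class, 230 of 265 divergent gaps in the domains held a hotspot (86.8%, 95% Wilson interval 82.2 to 90.3%), as did 350 of 512 tandem gaps (68.4%) and 27 of 266 convergent gaps (10.2%). In the interiors the shares were 84.6, 68.2 and 8.92%. Divergent gaps took 51.1% of domain hotspot oligos and 50.9% of interior ones.

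Families that often lie near chromosome ends were present in small numbers, and their 5′ gaps differed widely. Over all named genes, 848 of 1083 in the domains (78.3%) had a hotspot in the 5′ gap, with a median of 108 RPM, against 76.6% in the interiors. Of 9 iron genes (FIT, ARN and FRE), 8 had a hotspot, led by the ferric reductase genes FRE4 (302 RPM) and FRE7 (262) and by the gap shared by FIT3 and FRE5 (247). FRE3 had none. All 4 cell wall mannoprotein genes had one: PAU17 (208), DAN4 (172), PAU2 (76.5) and DAN1 (31.1). The thiamine genes THI2 (1446) and THI21 (357) both had one, as did the phosphate genes PHO13 (720), PHO84 (714) and PHO90 (395), but not PHO8. BIO2 had 138 RPM, BIO3 and BIO4 shared a gap with 21.2, and BIO5 had none. FLO5, a flocculin gene, had 108.

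None of the 4 maltose genes in the domains (IMA1, MAL13, IMA5 and IMA2) had a hotspot on the 5′ side, beside 78.3% with one among all named genes in the domains, and their gaps lay 20.95 to 26.5 kb from the end. Among 4 hexose transporter genes only HXT14 had one (384 RPM, 40.5 kb from the end), and HXT13, HXT8 and HXT11, 24.4 to 26.5 kb from the end, had none. IMA1 and MAL13 share a gap, as do IMA5 and HXT8 and also IMA2 and HXT11, so these genes do not give separate values. Both families have similar copies elsewhere in the genome, and the part of unique mapping in these values was not tested. No COS or aryl-alcohol dehydrogenase (AAD) gene had its 5′ gap in a domain.

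Of 28 meiotic genes, 6 had their 5′ gap in a domain, and 4 of these had a hotspot, beside 78.3% of all named genes in the domains. With 6 members nothing is read from this count. SKI8, a Spo11 partner, had 72.6 RPM, MEK1, the axis-bound kinase gene, 57.8, SPO11 itself 47.9 and HFM1, the helicase gene also called MER3, 33.1. The strand exchange gene DMC1 and ZIP2, of synapsis initiation, had none. Of the loci altered in the strain, HO (245 RPM), URA3 (70.6) and SPO11 lie in the domains, and so does the deleted NUC1, which had no hotspot.

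Oligos from the domains were slightly more often of the main length class than those from the interiors. Oligos of 25 to 32 nt made up 60.6 ± 0.928% in the domains and 59.7 ± 0.516% in the interiors (SD, n = 12). The difference of 0.94 points (interval 0.43 to 1.45) was above 0 on 10 of 12 chromosomes and passed (exact permutation p = 0.00488, adjusted p = 0.0457). XII had the widest gap (62.2 against 60.1%), followed by II (61.2 and 59.6%) and XI (61.9 and 60.4%), while X had the opposite order (59.3 and 59.95%) and VIII almost none (60.05 and 60.06%). The call was close to the threshold. Without 1 chromosome for this result, the others kept as reported, the adjusted p (exact permutation) ran from 0.0215 to 0.0537. It then stayed under the threshold only when VIII, X, XIII or XV was left out. Adjustment with a chromosome left out of all results together was not run. Without the top 1% of hotspots the difference was 0.65 points (exact permutation, adjusted p = 0.269). Over all reads, those of 33 to 40 nt made up 21% in the domains and 21.6% in the interiors, and those of 41 nt and longer 6.66% and 7.08%. Those of 12 to 24 nt made up 11.6% in each.

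Across the 12 chromosomes, interior density was lower on longer chromosomes (Pearson r = −0.82, Spearman rho = −0.83), whereas domain density showed little relation (r = −0.15, rho = −0.27). That contrast rested on the chromosomes farthest from the median length: without IV and VIII, r was −0.70 for the domains and −0.80 for the interiors (n = 10). Domain and interior density of the same chromosome had r = 0.13. These are descriptions over chromosomes that share the same libraries. On the 4 shorter chromosomes, where the same distances cover much of the sequence, density was 143 RPM per kb on VI, 116 on I, 110 on III and 79.2 on IX.

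**Figure D5:**
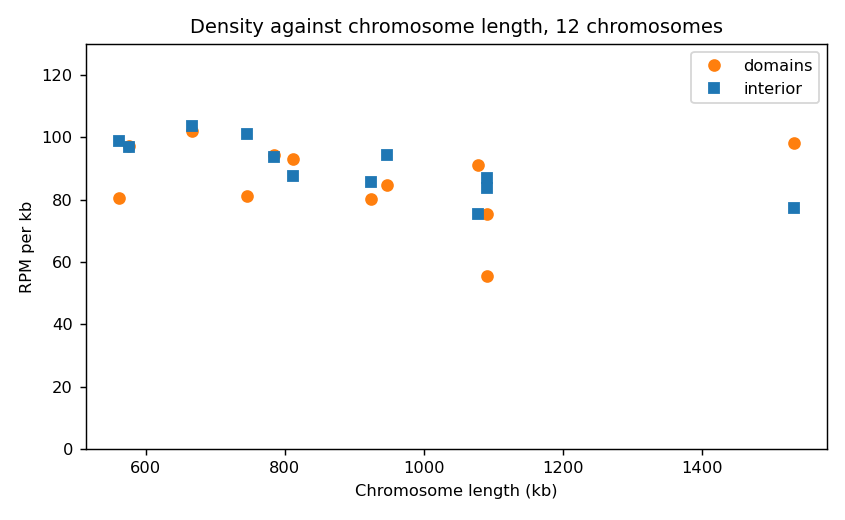
Density (RPM per kb) of the domains (circles) and interiors (squares) against chromosome length (kb) for 12 chromosomes. The squares of VIII and IV, the shortest and the longest, lie at 98.7 and 77.4, and their circles at 80.4 and 98.3.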

How the data were processed

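Spo11 oligos of all 4 datasets were pooled in both files. The authors' read list gives uniquely mapped reads with a mapping score, per the file headers; the score was not used. Their curated map holds deposited raw hit counts per position, both strands together, per the file headers, and served as an alternative. Both are on S288C, per the file headers; no source used here names the aligner or build.

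The 5′ end was the listed start (top strand) or end (bottom strand). Hotspots were called on 5′ ends smoothed with a Hann window of 201 bp, at 2.3 times the mean over 12 Mb, joined across gaps up to 200 bp, and kept from 25 bp and 10 RPM. A chromosome's end was taken as its last listed gene end or read, and its centromere as the midpoint between the innermost genes of both arms. Gene names came from RefSeq's R64 table. In 186 of 189 windows of 50 kb (without XI) its register was within 100 bp, whereas windows of XI past 200 kb were off by −400 to −330 bp, so genes there were not named. The window 20001 to 70000 on IV, in the left domain, was off by 135 bp, and its genes were named.

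Named items were the 20 strongest domain hotspots, the strongest of each domain, the 5 longest stretches between hotspots, and the 5 fullest and 5 emptiest bins; lists were given by counts. Bins, members and lists were chosen with earlier results of these data known. The floor for a count of 0 is 3 counts. Scripts (Python 3.11.15, NumPy 2.4.6, SciPy 1.17.1) were tested on simulated data. Alternatives changed read weighting, source, runs, chromosomes, bounds and hotspot settings.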

Additional observations from a re-analysis of the deposited data

Results flagged for a closer look

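The curated map holds 2321 hits at 557 positions of the domain bins at which no read is listed, and 19 bins exceed the 3 hits that a count of 0 allows. These hits lie outside the list on which the comparisons rest, and the 4 bins with 100 or more are given here; that minimum was chosen after the data were seen. The bin 857702 to 862701 on the right side of XVI had 1158 such hits, beside 503 listed oligos. The bin 60001 to 65000 on the left side of XVI had 301, beside 451. The bin 537048 to 542047 on the right side of VIII had 215, beside 17, so its place among the emptiest bins depends on the file used. The bin 95001 to 100000 on the left side of X had 162, beside 931.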

How the results depend on the processing

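Of 295 values under alternatives, 228 kept direction and side of the threshold, 32 changed sign, 33 lost a call and 2 gained one. All sign changes were in results that did not pass. Counting each position and strand once gave 0.011 for domain density (log2), −0.32 for the outer against the inner part (log2, call lost), −0.29 for hotspots per 100 kb, −0.20 points for oligos outside hotspots, −0.18 points for promoter gaps with a hotspot and 0.0079 for bin-to-bin spread. The cause of these changes was not tested.

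The outer against inner ratio kept its sign throughout and lost its call in runs E8YXO9P (−0.44), FE8RWPF (−0.43) and FFA0GWK (−0.45) alone and with 25 to 32 nt reads only (−0.49). It also lost it with bins moved by 2.5 kb (−0.48), an outer part from 40 kb (−0.36) and bins under 20 oligos left out (−0.47). Leaving out a chromosome or run gave −0.58 to −0.40. The share of 25 to 32 nt oligos also kept its sign and lost its call in runs E8YXO9P (1.05 points), FE8RWPF (0.791), FFA0GWK (1.14) and FIDXMPL (0.936) alone, with domains to 150 kb (0.635) and without the top 1% of hotspots (0.654), and ran from 0.836 to 1.08 with a chromosome or run left out.

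Run FIDXMPL alone gave −0.28 against the neighbouring stretch (call gained), −0.32 hotspots per 100 kb and −0.67 points for promoter gaps. Median bins gave 0.59 for left against right (call gained). Domains to 150 kb gave 0.013 for density and −0.21 hotspots per 100 kb, domains to 100 kb −0.66 hotspots and −1.29 points for promoter gaps, and domains from 30 kb 0.91 points for coding sequence. Hotspots at 4.6 times the mean gave −0.39 per 100 kb and −0.76 points for promoter gaps, a narrower smoothing window −0.094 and −0.12, and a wider one −0.58 and −0.49. With a chromosome or run left out, hotspots per 100 kb ran from −0.72 to 0.58, promoter gaps from −1.57 to 1.99 points and coding sequence from −1.22 to 0.018 points.

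Moved bins, outer parts from 30 or 40 kb, the 20-oligo minimum, other length classes and counting by position, strand and length were chosen after seeing the data. No paired analysis was possible because the files pool the cultures and their groups share fewer than 2 replicate numbers. With both cultures pooled, depth limits counting error only, and the spread between cultures is unknown.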
